A study of Homo sapiens with 8 samples.

Results

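Long intergenic noncoding RNAs (lincRNAs) are defined as transcripts from between protein-coding genes that carry no long reading frame. The set described here holds 329 of the 7629 genes that the deposited count table labels lincRNA, chosen by their level, a mean CPM of at least 1 over all 8 libraries, where CPM are counts scaled to the library's total. They were measured in SW480, a human colorectal adenocarcinoma cell line with truncated APC and active Wnt/β-catenin signalling. One group of 4 libraries came from cells that overexpress FLAG-tagged SPOCK1, a secreted proteoglycan also called testican-1, and the other group of 4 from cells with the vector control. Per the labels' protocols, lentivirus brought in the construct and puromycin selected the infected cells, so each group is a selected population of a single line. The labels do not give the number of cultures or infections behind each group's 4 libraries. The series title links SPOCK1 to Wnt/β-catenin signalling and stemness, and the comparison asks which transcripts differ when it is overexpressed.

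LincRNAs are spliced and capped like messenger RNAs, are usually less abundant, and often act in the nucleus or close to their own gene. Some scaffold nuclear bodies, some bind RNA-binding proteins or microRNAs, and others matter mainly for the small RNAs cut from their introns or exons. Several, such as CYTOR, PVT1, CRNDE and ELFN1-AS1, are known from colorectal tumours.

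Libraries held 35643585 to 42812951 counts. SPOCK1 itself had 6719, 7828, 9712 and 8964 counts in the SPOCK1 libraries and 6, 0, 3 and 6 in controls. Epithelial keratins, EPCAM and the intestinal genes CDX2 and VIL1 were present in both groups. The epithelial gene CDH1 was lower than these, at 11.2 CPM in SPOCK1 libraries and 17.8 CPM in controls. The intestinal genes LGALS4 and CDH17 were at or near 0. So were, of the leukocyte, endothelial and fibroblast markers, PTPRC, PECAM1, CDH5, DCN, LUM, COL1A2 and PDGFRA. CD3E averaged 0.143 CPM over the 8 libraries, CD14 had 0.874 CPM in SPOCK1 libraries and 1.19 CPM in controls, and VWF had 1.03 CPM in SPOCK1 libraries and 1.00 CPM in controls. Genes annotated as ribosomal RNA took 0.612% ± 0.045 of SPOCK1 and 0.715% ± 0.017 of control counts (SD, n = 4 each). The groups did not overlap, and nearly all of these counts were mitochondrial. Ribosomal reads counted under other biotypes are not in this sum. The part of this difference in the results was not tested. In an earlier account of these counts a GC trend separated the libraries numbered 1 and 3 from those numbered 2 and 4, so the calls below are also given within each pair of libraries. Throughout, changes are SPOCK1 over control on the log2 scale ± SE, levels are CPM on TMM-scaled library sizes, and adjusted p are from edgeR's quasi-likelihood test with Benjamini-Hochberg adjustment over 15790 genes. In bulk RNA, fewer cells expressing a transcript and less of it per cell cannot be told apart.

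Sequences are shown for the promoters of OLMALINC and MALAT1, since these lincRNAs were lower in SPOCK1 libraries, and for LINC01124, which lies back to back with the Wnt target SP5. They run from 250 bases before to 50 bases after the RefSeq start on GRCh38.p14. OLMALINC's covers chr10:100373326-100373625 on the plus strand, MALAT1's chr11:65497488-65497787 on the plus strand, and LINC01124's chr2:170714518-170714817 on the minus strand. Capitals mark CCAAT boxes.
OLMALINC promoter: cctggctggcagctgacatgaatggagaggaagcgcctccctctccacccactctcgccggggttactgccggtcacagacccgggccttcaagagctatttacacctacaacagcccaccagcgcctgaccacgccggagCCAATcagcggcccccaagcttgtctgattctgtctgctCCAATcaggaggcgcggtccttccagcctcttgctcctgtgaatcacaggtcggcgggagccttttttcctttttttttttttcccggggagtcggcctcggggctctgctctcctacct
MALAT1 promoter: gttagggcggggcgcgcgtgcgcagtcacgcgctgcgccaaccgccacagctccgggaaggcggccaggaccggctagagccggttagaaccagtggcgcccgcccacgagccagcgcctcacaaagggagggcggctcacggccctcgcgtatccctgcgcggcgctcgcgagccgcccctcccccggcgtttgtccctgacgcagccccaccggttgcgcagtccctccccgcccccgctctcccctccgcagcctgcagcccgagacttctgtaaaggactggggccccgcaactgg
LINC01124 promoter: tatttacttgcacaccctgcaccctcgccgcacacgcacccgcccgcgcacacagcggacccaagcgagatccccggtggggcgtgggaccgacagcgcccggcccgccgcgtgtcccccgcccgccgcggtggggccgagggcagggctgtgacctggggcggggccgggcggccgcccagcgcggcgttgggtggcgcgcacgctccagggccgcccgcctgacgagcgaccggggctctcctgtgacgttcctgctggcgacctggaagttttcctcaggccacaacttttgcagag
The OLMALINC window held 2 CCAAT boxes on its own strand, 109 and 70 bases before the start. MALAT1's window, of 73.7% GC, and LINC01124's, of 74% GC, held none of the motifs searched on either strand. These were the CCAAT box (CCAAT), the endoplasmic reticulum stress element of CCAAT and CCACG 9 bases apart, a sterol element (TCACNCCAC), the TCF/LEF site (CTTTGAT), the E-box (CACGTG) and the TATA box (TATAAA), where the stress element contains a CCAAT box. Of the 329 lincRNAs, 116 had a promoter in the RefSeq table, and in 80 of them the RefSeq start lay within 100 bases of the annotated one. CCAAT stood in 37.1% of these 116 promoters and in 34.6% of all 35116 promoters. The TCF/LEF letters stood in 1.72%, against 2.62% of all promoters, the E-box in 7.76%, against 7.26%, and the TATA box in 6.9%, against 11.5%. Neither the sterol element, found in 1.13% of all promoters, nor the stress element, found in 0.0769%, was found in the lincRNA promoters. NEAT1 and AL354861.3 had no entry.

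A second set of sequences shows what some of the transcripts carry. Mature microRNAs of 19 genes in the RefSeq table lay inside 12 of the lincRNAs on the same strand, and the sequences below are those of some hosts whose levels are described later, with the seed (bases 2 to 8) in capitals.
hsa-let-7a-5p, in MIRLET7BHG: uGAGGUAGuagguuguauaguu
hsa-let-7b-5p, in MIRLET7BHG: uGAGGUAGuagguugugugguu
hsa-miR-4435, in CYTOR and in MIR4435-2HG: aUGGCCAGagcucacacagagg
hsa-miR-29b-3p, in LINC-PINT: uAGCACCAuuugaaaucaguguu
hsa-miR-210-3p, in MIR210HG: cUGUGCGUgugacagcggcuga
Both let-7 arms share 1 seed, and CYTOR and MIR4435-2HG carry the same microRNA. The miR-29b-3p sequence of LINC-PINT also lies inside AC016831.6, another of the 12. The counts measure the long transcripts, not the mature microRNAs.

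LincRNAs made up a small part of the RNA. Of the 7629, 4904 had no count in any library and 2725 had at least 1. The 329 took 0.197, 0.193, 0.196 and 0.192% of counts in SPOCK1 libraries 1 to 4, against 0.216, 0.196, 0.208 and 0.200% in control libraries 1 to 4. Control libraries 1 and 3 were the highest, and control library 2 lay within the SPOCK1 range. The means were 0.195% ± 0.0023 in SPOCK1 libraries and 0.205% ± 0.0089 in controls (SD, n = 4 each), a difference of -0.0107 percentage points beside a pooled SD of 0.0065, and no test was made of this sum.

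The rule chose members by level, so their levels are a description. The median mean level was 2.59 CPM, against 26.9 CPM for 11809 protein-coding genes chosen in the same way. Per kb of exon the medians were 1.55 and 5.02 CPM, the lincRNAs being shorter (median 2117 against 5147 bases) with a median of 3 exons in the transcript with most, against 10. Single-exon genes numbered 85. Only 40 lincRNAs reached 10 CPM and 95 reached 5 CPM. The 10 most abundant held 30.1% of the summed level and NORAD alone 12.4%, whereas the lower 164 members together held 13.3%. Just inside the threshold lay PLUT, STK4-AS1 and AC083843.2, at 1.03, 1.01 and 1.00 CPM on plain totals, and just outside it AP005482.1, AC020910.4 and AC069544.1, at 0.997, 0.990 and 0.988 CPM.

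**Figure D1:**
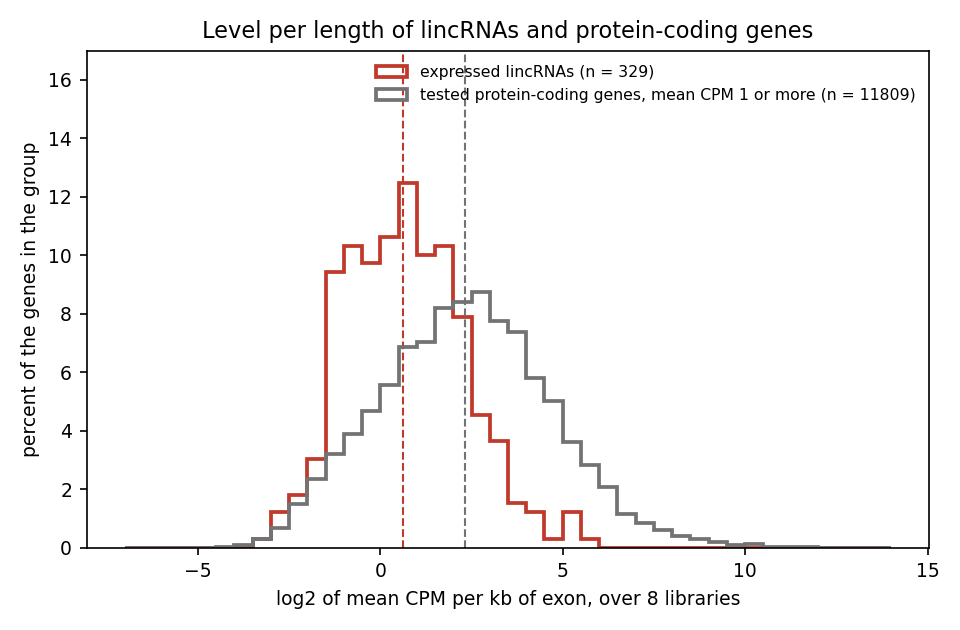
Share of genes (percent of each group) by log2 mean CPM per kb of exon over the 8 libraries, for 329 lincRNAs and 11809 protein-coding genes with a mean of at least 1 CPM; dashed lines are medians. The lincRNA curve lies to the left, with a median of 1.55 CPM per kb against 5.02 for protein-coding genes.

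NORAD, a cytoplasmic RNA that binds Pumilio proteins, led by level both per transcript and per length. It had 226.2, 232.3, 255.7 and 242.2 CPM in SPOCK1 libraries 1 to 4, against 311.9, 226.3, 241.7 and 238.1 CPM in control libraries 1 to 4. Control library 1 stood above all others, and the remaining 3 controls lay within the SPOCK1 range. The change was -0.09 ± 0.09 (adjusted p = 0.722). In NORAD 35.3% of 50-base words also occur in other annotated genes, so its counts depend on how reads matching several genes were handled. Per kb of exon the next were SNHG19 at 36.9 CPM, FP236383.3 and AC011747.1 at 32.2 CPM each and ELFN1-AS1 at 32.01 CPM. All 50-base words of FP236383.3 recur in another annotated gene, so its place also depends on how such reads were handled. MALAT1, at 0.953 CPM per kb, and NEAT1, at 0.890 CPM per kb, ranked only 215th and 219th among the 329.

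Few of these transcripts changed with SPOCK1. At an adjusted p under 0.05, no lincRNA was higher and 4 were lower, OLMALINC, MALAT1, NEAT1 and AL354861.3, and 325 did not pass. That is 1.22% lower, against a background of 0.798% of all genes tested, and 0% higher, against 0.247%; in both directions together the background was 1.04%. At an unadjusted p under 0.05, 12 lincRNAs were higher and 29 lower, 3.65% and 8.81% of them, beside 5.49% and 8.17% of all genes (13.7% in either direction). DESeq2 called 1 lincRNA higher, with 0.806% of all genes higher, and 6 lower, with 1.79% of all genes lower. The groups did not overlap in 10 lincRNAs with SPOCK1 libraries above (3.04%, background 3.43%) and in 13 with them below (3.95%, background 4.8%; 8.23% in either direction). These shares lie near the background.

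Most changes were small and ran in either direction. The median change over the 329 was -0.01, with quartiles of -0.21 and 0.16, and 171 were negative. Over all 15790 genes the median was -0.00, with quartiles of -0.15 and 0.12, and 50.8% were negative, against 52.0% of the lincRNAs. For 245 lincRNAs the change was within 0.3 either way. The extremes were FP236383.2 at -1.09 (adjusted p = 0.364), the only one past 2-fold, and AC008608.2 at 0.70 (adjusted p = 0.32). Precision was lower than for the table as a whole, with a median SE of 0.21 against 0.13.

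**Figure D2:**
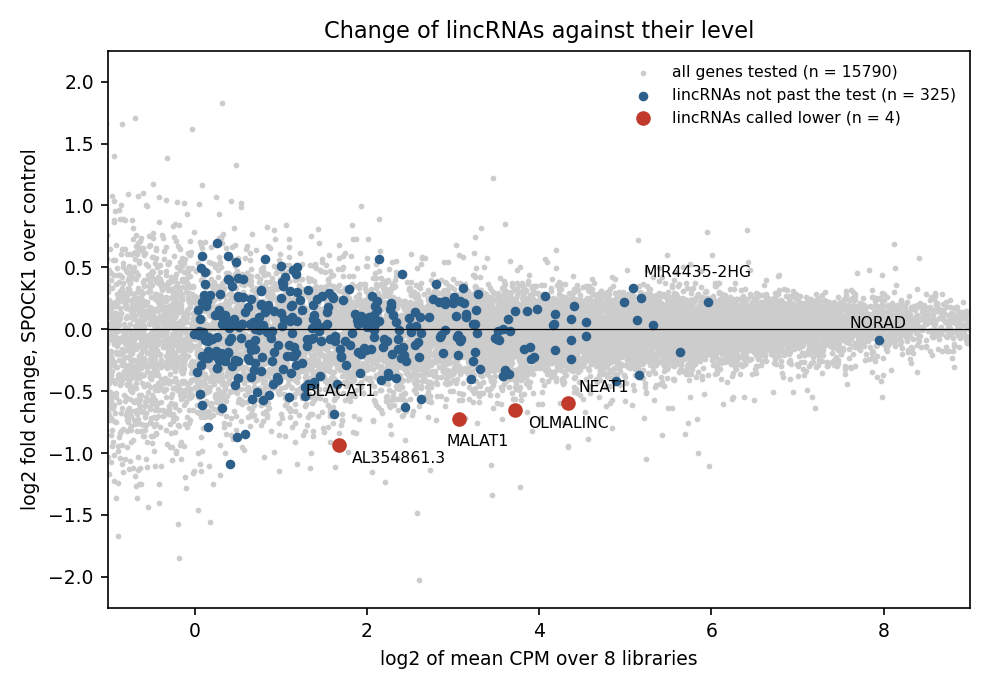
Log2 fold change, SPOCK1 over control, against log2 mean CPM; grey points are the genes tested, blue points the 325 lincRNAs not past the test and red points the 4 called lower. Of 15790 tested genes 1625, SPOCK1 among them, lie outside the axes; 245 of the 329 lincRNAs lie within 0.3 of 0.

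OLMALINC (ENSG00000235823, chr10:100373513-100454043, plus strand, GRCh38) is a multi-exon lincRNA named for oligodendrocyte maturation that lies beside SCD. It had 8.21, 11.4, 11.3 and 10.2 CPM in SPOCK1 libraries 1 to 4, against 17.2, 15.8, 15.7 and 15.8 CPM in control libraries 1 to 4. Every SPOCK1 library lay below every control, with library 1 the lowest. The means were 10.3 ± 1.48 CPM in SPOCK1 libraries and 16.1 ± 0.69 CPM in controls (SD, n = 4 each), a change of -0.65 ± 0.12 (adjusted p = 0.0109). It was the 1 lincRNA that also passed without each library in turn (adjusted p 0.0203 to 0.0474). Within libraries 1 and 3 the change was -0.75 (adjusted p = 0.304) and within libraries 2 and 4 it was -0.55 (adjusted p = 0.049). Of its 50-base words 12.8% also occur in other annotated genes.

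SCD, which ends 8679 bases upstream of OLMALINC on the same strand, encodes the stearoyl-CoA desaturase that makes monounsaturated fatty acids. It had 624.8, 676.3, 663.3 and 703.2 CPM in SPOCK1 libraries, against 966.6, 908.3, 811.0 and 868.4 CPM in controls. All SPOCK1 libraries again lay below all controls, and the change was -0.41 ± 0.08 (adjusted p = 0.0105). Downstream WNT8B, a Wnt ligand gene 8998 bases away, had 3.06 ± 0.54 CPM in SPOCK1 libraries and 3.34 ± 0.59 CPM in controls (SD, n = 4 each), with a change of -0.12 (adjusted p = 0.815). SCD and WNT8B were looked up as the nearest genes of a called lincRNA, not chosen for their change.

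MALAT1 (ENSG00000251562, chr11:65497688-65506516, plus strand) is a nuclear RNA held in splicing speckles. It had 5.13, 7.10, 6.14 and 7.04 CPM in SPOCK1 libraries 1 to 4, against 11.7, 8.80, 11.8 and 9.58 CPM in control libraries 1 to 4. The groups did not overlap, and controls 1 and 3 stood above controls 2 and 4. The means were 6.35 ± 0.92 CPM in SPOCK1 libraries and 10.5 ± 1.51 CPM in controls (SD, n = 4 each), a change of -0.72 ± 0.14 (adjusted p = 0.0189). Within libraries 1 and 3 it was -1.05 (adjusted p = 0.0962) and within libraries 2 and 4 -0.38 (adjusted p = 0.38). The adjusted p was 0.0706 without SPOCK1 library 3, 0.0754 without control library 1 and 0.0533 without control library 3.

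NEAT1 (ENSG00000245532, chr11:65422774-65445540, plus strand), the RNA core of nuclear paraspeckles, lies upstream of MALAT1 on the same strand. It had 14.9, 16.7, 16.6 and 16.4 CPM in SPOCK1 libraries 1 to 4, against 29.3, 19.4, 25.3 and 23.4 CPM in control libraries 1 to 4. SPOCK1 libraries were tightly grouped below all controls, among which library 1 was highest. The means were 16.2 ± 0.87 CPM in SPOCK1 libraries and 24.3 ± 4.15 CPM in controls (SD, n = 4 each), a change of -0.59 ± 0.12 (adjusted p = 0.0203). Within libraries 1 and 3 it was -0.79 (adjusted p = 0.15) and within libraries 2 and 4 -0.37 (adjusted p = 0.22). The adjusted p was 0.0655 without SPOCK1 library 2, 0.0604 without SPOCK1 library 3 and 0.0754 without control library 1.

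Of the protein-coding genes near the pair, 5 are given here, and none of these passed the test. The log2 fold changes by MALAT1 were -0.14 for LTBP3 and 0.21 for SSSCA1, and by NEAT1 -0.07 for FRMD8, -0.25 for SLC25A45 and 0.16 for TIGD3. MALAT1 and the long form of NEAT1 end in a triple helix in place of a poly(A) tail, and the sources used here do not say whether poly(A) RNA was selected. As another group without such tails, 43 tested histone genes, looked up after these values were seen, had a median change of 0.02. Their summed level was 742.0 to 840.0 CPM in SPOCK1 libraries and 681.2 to 820.6 CPM in controls, and the part of RNA selection in the MALAT1 and NEAT1 values was not tested.

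AL354861.3 (ENSG00000268926, chr9:95772323-95776282, plus strand) is known only by a clone name, and its exons overlap those of LINC00476 on the opposite strand. It had 3.02, 1.62, 2.03 and 2.11 CPM in SPOCK1 libraries 1 to 4, against 4.86, 3.27, 4.61 and 4.05 CPM in control libraries 1 to 4. The highest SPOCK1 library stood just below the lowest control. The means were 2.20 ± 0.59 CPM in SPOCK1 libraries and 4.19 ± 0.71 CPM in controls (SD, n = 4 each), a change of -0.93 ± 0.21 (adjusted p = 0.0372). The call was lost, with an adjusted p of 0.0605 to 0.137, without SPOCK1 library 2, 3 or 4 or without control library 1, 3 or 4, and within libraries 1 and 3 (-0.91, adjusted p = 0.351) or 2 and 4 (-0.97, adjusted p = 0.0857). LINC00476 itself had 9.17 ± 0.96 CPM in SPOCK1 libraries and 8.57 ± 0.94 CPM in controls (SD, n = 4 each; change 0.10, adjusted p = 0.787). Of AL354861.3's sequence words 2.1% also occur in LINC00476. The strand setting of the counting is not given, so where reads of the overlapping exons went cannot be told.

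**Figure D3:**
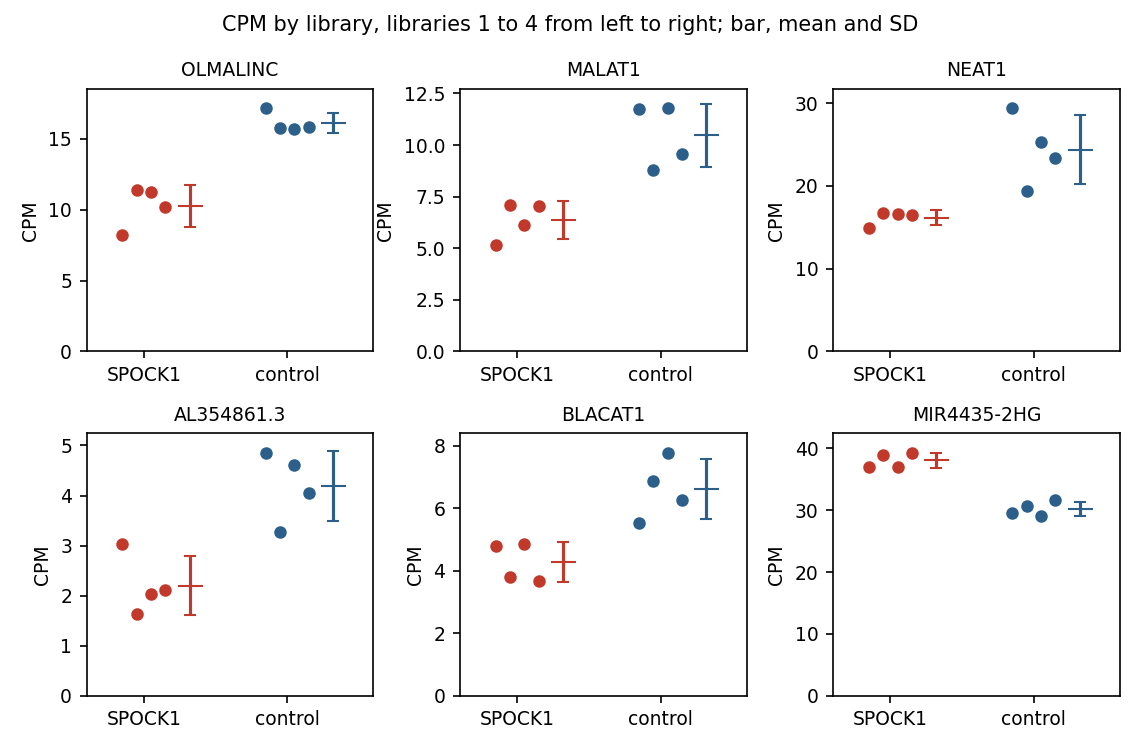
CPM in each library for OLMALINC, MALAT1, NEAT1, AL354861.3, BLACAT1 and MIR4435-2HG, SPOCK1 libraries in red on the left and controls in blue on the right, with mean and SD (n = 4 each). SPOCK1 libraries lie below controls in the first 5 panels and above them for MIR4435-2HG, and the last 2 panels did not pass the test.

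BLACAT1 and MIR4435-2HG had the smallest p-values among those not past the threshold. BLACAT1 (ENSG00000281406), named for bladder cancer, had 4.79, 3.79, 4.87 and 3.67 CPM in SPOCK1 libraries, against 5.53, 6.88, 7.79 and 6.26 CPM in controls. Groups did not overlap, and the change was -0.62 ± 0.16 (adjusted p = 0.0737). Its exon overlaps exons of LEMD1 on the same strand, so the reads of the 2 genes are hard to separate. MIR4435-2HG (ENSG00000172965) had 37.0, 39.0, 37.1 and 39.3 CPM in SPOCK1 libraries, against 29.5, 30.6, 29.04 and 31.7 CPM in controls. All SPOCK1 libraries lay above all controls, the change was 0.33 ± 0.08 (adjusted p = 0.0747), and its spread within groups was the smallest of all members. DESeq2 called both, with adjusted p of 0.0204 for BLACAT1 and 0.00817 for MIR4435-2HG.

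CYTOR, which shares sequence with MIR4435-2HG and lies elsewhere on chromosome 2, is known in colorectal and other tumours. It had 44.3, 39.6, 36.9 and 36.7 CPM in SPOCK1 libraries, against 32.1, 30.7, 35.1 and 34.3 CPM in controls. The groups did not overlap, and the change of 0.25 ± 0.09 did not pass (adjusted p = 0.245). Of CYTOR's 50-base words 16.0% recur in MIR4435-2HG, and of MIR4435-2HG's 21.6% recur in CYTOR. The split of reads between them is therefore uncertain.

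None of the 7 lincRNAs on the colorectal cancer list passed edgeR's test, and 3 had an unadjusted p under 0.05, beside 13.7% of all genes. DESeq2 called 1 of the 7 lower, BLACAT1, beside 1.79% of all genes. The median change of the 7 was 0.06, with 4 positive. ELFN1-AS1, high per length, had 37.0, 34.9, 32.4 and 31.9 CPM in SPOCK1 libraries, against 28.8, 31.2, 28.7 and 28.4 CPM in controls, without overlap (0.22 ± 0.09, adjusted p = 0.304). PVT1, the member of the list of lincRNAs around MYC that met the level rule, had 23.9 ± 2.83 CPM in SPOCK1 libraries and 22.9 ± 2.10 CPM in controls (SD, n = 4 each; 0.06, adjusted p = 0.843). The log2 fold change was 0.26 for CRNDE, named for colorectal neoplasia (adjusted p = 0.515), -0.06 for LINC01315 (adjusted p = 0.898) and -0.38 for LINC01234 (adjusted p = 0.495).

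LINC01124 starts 784 bases from SP5, a transcription factor gene induced by Wnt signalling, on the opposite strand. It had 32.2, 29.5, 28.3 and 34.6 CPM in SPOCK1 libraries, against 35.0, 42.4, 38.9 and 44.8 CPM in controls. The highest SPOCK1 library lay just below the lowest control, and the change of -0.37 ± 0.10 did not pass (adjusted p = 0.104). SP5 had 281.1 ± 30.4 CPM in SPOCK1 libraries and 304.5 ± 19.8 CPM in controls (SD, n = 4 each), with overlap (-0.12 ± 0.09, adjusted p = 0.587).

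SnoRNA host transcripts carry small nucleolar RNAs in their introns. None of the 5 members passed edgeR's test, DESeq2's or an unadjusted p under 0.05, the median change was 0.14 and 4 were positive. SNHG15 led them, with 78.9, 67.6, 58.0 and 63.1 CPM in SPOCK1 libraries, against 49.8, 55.4, 60.7 and 63.9 CPM in controls, overlapping (0.22 ± 0.10, adjusted p = 0.366). The fold change on the log2 scale was 0.08 for SNHG4, whose exons overlap MATR3 and SIL1 (adjusted p = 0.801), 0.19 for SNHG8 (adjusted p = 0.615), 0.14 for EPB41L4A-AS1 (adjusted p = 0.596) and -0.01 for SNHG19 (adjusted p = 0.978). Other hosts on the list, such as GAS5 and SNHG1, carry another biotype in the table and are not members.

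A list of microRNA hosts, drawn up by gene symbol, had 8 members, fewer than the 12 found by position above. PVT1, on the list, was not among those 12. The search by position depends on which microRNAs the RefSeq table holds, so this does not show that PVT1 hosts none. None of the 8 passed edgeR's test, and 3 had an unadjusted p under 0.05, beside 13.7% of all genes. DESeq2 called 1 of the 8 higher, MIR4435-2HG, beside 0.806% of all genes. Their median change was 0.20, and 7 of the 8 were positive. Of the 12 found by position, MIR210HG and FTX, which is not on the list, had a negative value. MIRLET7BHG, the host of the let-7 sequences above, had 18.3 ± 2.08 CPM in SPOCK1 libraries and 15.2 ± 2.53 CPM in controls (SD, n = 4 each; 0.27 ± 0.13, adjusted p = 0.362), and MIR22HG 9.13 ± 1.85 CPM in SPOCK1 libraries and 7.78 ± 0.38 CPM in controls (0.23 ± 0.14, adjusted p = 0.503). On the log2 scale the others were at 0.15 for MIR503HG, 0.18 for MIR4458HG and 0.28 for MIR193BHG. The negative member of the list was MIR210HG, whose microRNA is induced by hypoxia, at 0.615, 0.684, 0.670 and 1.31 CPM in SPOCK1 libraries and 0.731, 1.94, 1.51 and 1.46 CPM in controls. The groups overlapped (-0.79 ± 0.34, adjusted p = 0.326).

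Of 8 lincRNAs on the list of nuclear and other widely studied ones, MALAT1 and NEAT1 were lower in edgeR, beside 0.798% of all genes tested, and the median change was 0.08. At an unadjusted p under 0.05 there were 4, CYTOR and MIR4435-2HG on the higher side, beside 13.7% of all genes. DESeq2 called 3, MIR4435-2HG as higher, while over all genes it called 0.806% higher and 1.79% lower. FTX, a lincRNA of the X-inactivation centre, was at -0.36 on the log2 scale and did not pass (adjusted p = 0.423). The list of p53-linked lincRNAs had 3 members, of which NEAT1 was lower, beside 0.798% of all genes. MIR22HG and LINC-PINT, at 0.27 (adjusted p = 0.621), did not pass. Only NEAT1 of the 3 had an unadjusted p under 0.05, beside 13.7% of all genes. DESeq2 also called 1 of the 3, NEAT1, beside 1.79% of all genes lower. Of the 4 members of the stress and hypoxia list, NEAT1 and MALAT1 were lower, beside the same 0.798% of all genes, MIR22HG and MIR210HG did not pass, and the median was -0.66. MIR210HG was the third of its members with an unadjusted p under 0.05. These lists share MALAT1, NEAT1 and MIR22HG, so their counts are not separate results.

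Among the most abundant members without a list, LINC02600 had 46.6 ± 5.33 CPM in SPOCK1 libraries and 52.9 ± 2.76 CPM in controls (SD, n = 4 each; -0.18, adjusted p = 0.412). EBLN3P, a relic of a bornavirus nucleoprotein gene, had 40.7 ± 4.93 CPM in SPOCK1 libraries and 39.7 ± 3.46 CPM in controls (SD, n = 4 each; 0.04, adjusted p = 0.91). FP236383.3 on the short arm of chromosome 21 had 21.9, 26.6, 16.3 and 37.3 CPM in SPOCK1 libraries, against 50.0, 32.3, 29.5 and 24.2 CPM in controls. Its libraries overlapped widely (-0.42 ± 0.22, adjusted p = 0.427), and every 50-base word of it recurs in FP236383.2, so the split between these genes is uncertain. Within libraries 1 and 3 the change was -1.06 (adjusted p = 0.264) and within libraries 2 and 4 it was 0.18 (adjusted p = 0.707).

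Spread between libraries was smaller at higher levels up to 50 CPM. The median SD of log2 CPM within groups was 0.372 for the 121 lincRNAs at 1 to 2 CPM, 0.261 for the 112 at 2 to 5 CPM, 0.193 for the 55 at 5 to 10 CPM and 0.152 for the 38 at 10 to 50 CPM. Protein-coding genes in the same bins had 0.376, 0.274, 0.207 and 0.151. Counting alone would give 0.199, 0.137, 0.0870 and 0.0562 for the lincRNAs, under the observed value in each of these bins. The 2 lincRNAs at 50 CPM or more, NORAD and SNHG15, had a median SD of 0.165, against 0.118 for protein-coding genes there. MIR4435-2HG, AP003392.4 and AC091982.3 varied least, with SDs of 0.0516, 0.0788 and 0.0826.

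FP236383.2, CR392039.3 and STK4-AS1 varied most, with SDs of 1.14, 0.769 and 0.664. FP236383.2 had 1.04, 0.627, 1.04 and 0.684 CPM in SPOCK1 libraries, against 3.84, 0.378, 0.647 and 2.36 CPM in controls, so that controls 1 and 4 stood apart. CR392039.3 had 0.882, 3.79, 3.90 and 3.45 CPM in SPOCK1 libraries, the first far below the rest, and 3.89, 2.81, 2.42 and 3.68 CPM in controls. STK4-AS1 starts 72 bases from the kinase gene STK4 on the opposite strand. It had 1.07, 0.627, 0.762 and 1.14 CPM in SPOCK1 libraries and 0.522, 1.70, 0.727 and 1.61 CPM in controls.

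**Figure D4:**
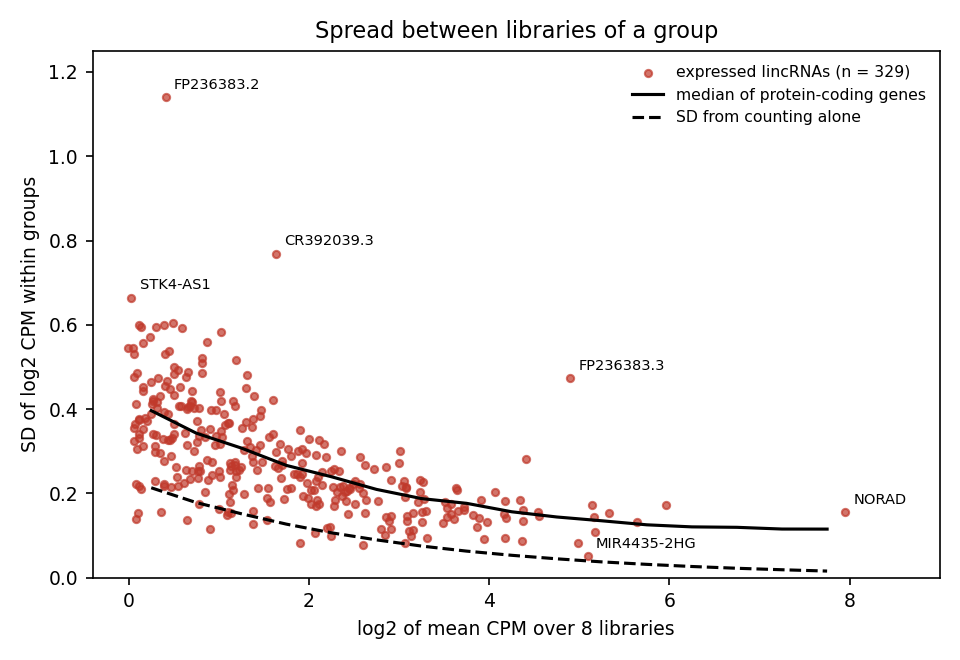
SD of log2 CPM within groups against log2 mean CPM for the 329 lincRNAs, with the median of protein-coding genes (solid line) and the SD from counting alone (dashed line). LincRNAs follow the protein-coding line, and FP236383.2 (1.14), CR392039.3 (0.769) and FP236383.3 (0.473) stand above it.

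Gene structure and position, which the level rule did not use, were described without a test. Single-exon lincRNAs had a median change of -0.09, with 57 of 85 negative, and those of 2 or more exons 0.03, with 114 of 244 negative. By GC content the median was 0.04 in the 110 of lowest GC, -0.03 in the middle 109 and -0.06 in the 110 of highest GC, and 3 of the 4 called lincRNAs lay among those of lowest GC. Another annotated gene overlapped 158 of the lincRNAs, all 4 called ones among them, and 171 had none. A protein-coding gene body, on either strand, was overlapped by 65, so not all members lie between such genes, and 0 of the 65 were called. For OLMALINC, MALAT1 and NEAT1 the overlapping genes include annotated small RNA families. By chromosome, 36 lincRNAs lay on chromosome 2, 31 on 7 and 25 on 17.

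A protein-coding gene started within 1 kb on the opposite strand of 91 lincRNAs, at a median of 181 bases, an arrangement in which both can share a promoter region. The partner was tested in 90 pairs, and 4 partners passed, 1 higher and 3 lower, which is 4.44% beside the background of 1.04%. In 86 of the 90 pairs the partner's level was above that of the lincRNA. None of the 91 lincRNAs passed in edgeR. Of the 91, 13 had an unadjusted p under 0.05, beside 13.7% of all genes. DESeq2 called 1 of the 91 lower, LINC01124, beside 1.79% of all genes. Across the 90 pairs Pearson's r of the changes was 0.17 and Spearman's rho 0.13, a description across genes that share libraries, and the sign was the same in 42. The 4 pairs named next were picked for their partner's call.

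INSIG1, which retains SREBP factors in the endoplasmic reticulum, had 66.1, 64.5, 76.0 and 63.7 CPM in SPOCK1 libraries, against 101.1, 92.5, 101.8 and 99.5 CPM in controls, and was lower (-0.55 ± 0.08, adjusted p = 0.00204). Its partner AC144652.1 had 4.68, 4.87, 3.26 and 4.73 CPM in SPOCK1 libraries, against 5.22, 5.83, 5.50 and 6.46 CPM in controls. Neither gene's groups overlapped, but AC144652.1 did not pass (-0.39 ± 0.16, adjusted p = 0.293). PDGFA, a growth factor gene, was lower (-0.40 ± 0.09, adjusted p = 0.0269) beside HRAT92 (-0.56 ± 0.17, adjusted p = 0.135), and the kinase gene SBK1 was lower (-0.69 ± 0.15, adjusted p = 0.0277) beside AC138904.1 (-0.53 ± 0.23, adjusted p = 0.323). ODC1, the first enzyme of polyamine synthesis, was higher (0.38 ± 0.07, adjusted p = 0.0104), at 936.4 ± 34.0 CPM in SPOCK1 libraries and 718.1 ± 29.7 CPM in controls (SD, n = 4 each), beside AC007249.2 (0.36 ± 0.30, adjusted p = 0.629).

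**Figure D5:**
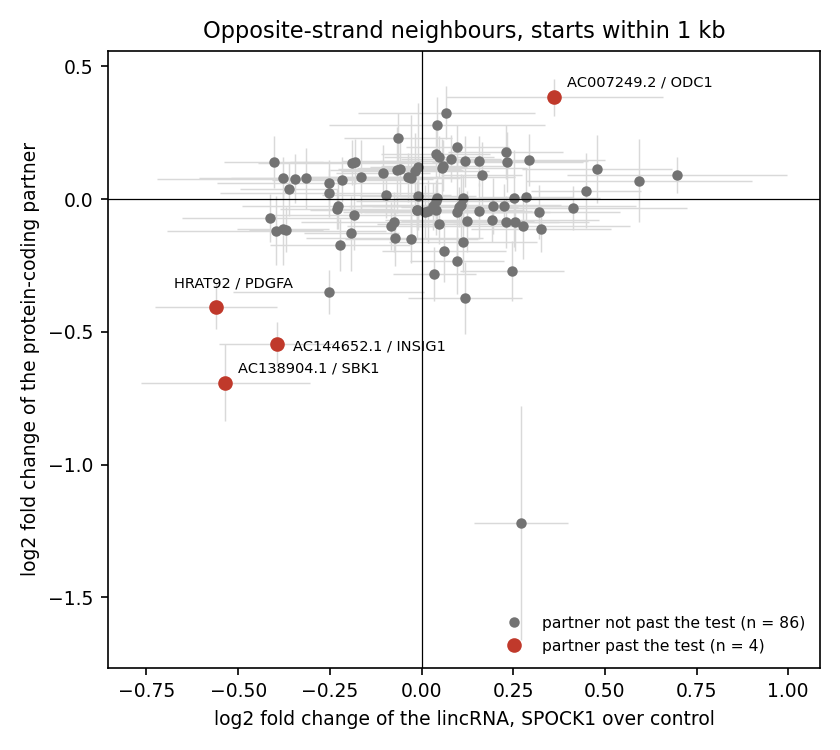
Log2 fold change, SPOCK1 over control, of 90 protein-coding partners against that of the lincRNA starting within 1 kb on the opposite strand; bars are SE, and red points the 4 partners past the test. The points scatter around 0 (r = 0.17), with INSIG1, PDGFA and SBK1 at the lower left and ODC1 at the upper right.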

How the data were processed

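RNA from 8 SW480 libraries was sequenced with a NEBNext Ultra kit, per the labels' protocols. The deposited values are raw read counts per gene made by the authors. The submitters' processing notes name CASAVA, featureCounts 1.5.0-p3 and HISAT2 2.0.5. Not given in the sources used here are genome build, strand setting, poly(A) selection and multi-mapping, so reads of overlapping or antisense genes cannot be told apart. Start, end, strand and biotype of all 58735 genes were identical to GENCODE 29 (GRCh38), and the deposited length equalled the union of exons.

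Total counts, which set the counting part of the spread, were 35643585 to 42812951 per library. Genes passing filterByExpr (minimum count 10, minimum total 15) numbered 15790 and included all 329 members, 678 lincRNAs in all. The test between the groups of 4 was edgeR's (4.0.16, R 4.3.3; TMM factors, quasi-likelihood F test, no covariates, Benjamini-Hochberg over all genes tested, threshold 0.05), and the SE was taken from the F statistic. The code was tested on simulated data. Since separate cultures are not stated, p-values reflect the spread among these libraries alone, possibly a technical one. Members and lists were chosen with earlier results of these data known.

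Named members were the 10 of highest level, those past the threshold and up to the 6 smallest p, list members, the 3 of largest and of smallest spread, and the 3 on either side of the level threshold. Pairs, neighbours and histone genes were added after values were seen. Shared sequence was counted as 50-base words of GENCODE transcripts found in another gene. Promoters and microRNAs are RefSeq's (GRCh38.p14). Alternatives were RLE, upper-quartile and no factors, DESeq2 1.42.0, limma-voom (limma 3.58.1), other filters, the replicate block, libraries left out, pairs of libraries, other library sizes, offsets on GC content and length, and narrower member rules.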

Additional observations from a re-analysis of the deposited data

Results flagged for a closer look

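In 6 of 56 groups of 4 examined, those of the 27 named lincRNAs and of their summed share of counts, 1 library stood apart from the other 3 by Dixon's criterion, which chance alone meets in about 1 of 20 groups. In SPOCK1 libraries these were library 1 of NEAT1, at 14.9 CPM beside 16.4 to 16.7 CPM, and library 1 of CR392039.3, at 0.882 CPM beside 3.45 to 3.90 CPM. In controls these were library 1 of OLMALINC, at 17.2 CPM beside 15.7 to 15.8 CPM, and library 2 of ELFN1-AS1, at 31.2 CPM beside 28.4 to 28.8 CPM. Control library 3 stood apart for PVT1, at 26.0 CPM beside 21.6 to 22.3 CPM, and for LINC-PINT, at 3.91 CPM beside 2.24 to 2.43 CPM. OLMALINC was still called without control library 1, and NEAT1 without SPOCK1 library 1.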

How the results depend on the processing

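No named lincRNA that passed the test changed direction under any of the alternatives. The number lower was 4 with RLE or upper-quartile factors, limma-voom, a filter at a mean of 1 CPM, library sizes without SPOCK1 or mitochondrial genes, and members of 2 CPM or more. It was 5 on column totals, which added LINC01124, beside 1.02% of all genes lower. DESeq2 gave 6, adding LINC01124 and BLACAT1, beside 1.79%. In libraries 2 and 4 it was 3, beside 0.592% of all genes. Of these only OLMALINC was among the 4, and the others were BLACAT1 and LINC01124. LINC01124 was called in 5 of 21 alternatives. Without a filter beyond 1 count 9 lincRNAs were lower, beside 279 of 28782 genes (0.969%), where the main fit had 126 of 15790 (0.798%). Offsets on GC content and length gave 9 lower, beside 255 of 15790 genes (1.61%). Libraries 1 and 3 alone gave 0, beside 7 of 16178 genes (0.0433%). Among the 171 members without an overlapping gene 0 were lower. Of these 171, 18 had an unadjusted p under 0.05, beside 13.7% of all genes, and DESeq2 called 1. Leaving out 1 library gave 1 to 5 lower, and OLMALINC was called each time. The number higher was 1 with DESeq2 (MIR4435-2HG), beside 115 of 14271 genes (0.806%), where the main fit had 39 of 15790 (0.247%). It was 2 with the offsets (MIR4435-2HG and MIRLET7BHG), beside 367 of 15790 genes (2.32%). It was 0 to 1 without 1 library (FLJ22447 without SPOCK1 library 4), and 0 elsewhere. The median change was -0.053 on column totals, where that of all genes was -0.046, and -0.03 to 0.00 without 1 library. The cause of these shifts was not tested.

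Deviations of same-numbered libraries correlated at -0.07 to 0.08 between the groups, and those of differently numbered libraries at -0.15 to 0.16. These values gave no sign of pairing by number, but they cannot show how the libraries were prepared. With the replicate block 2 lincRNAs were lower, OLMALINC and AL354861.3, beside 84 of 15790 genes lower (0.532%) and 31 higher (0.196%). The adjusted p in that fit was 0.0678 for MALAT1 and 0.0584 for NEAT1. For the weak members counting makes up a part of the spread. At 1 to 2 CPM the counting SD alone was 0.199 on the log2 scale, beside an observed median SD of 0.372.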

Other observations

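Another 349 lincRNAs below 1 CPM were tested, and none passed in edgeR, beside 1.04% of all genes tested. Of the 349, 25 had an unadjusted p under 0.05, beside 13.7% of all genes. DESeq2 called 3 of the 349, while over all genes it called 0.806% higher and 1.79% lower. MIR34AHG, the host of the p53-induced microRNA miR-34a, had the smallest p among the 349. It had 0.588, 0.199, 0.508 and 0.456 CPM in SPOCK1 libraries, against 1.28, 0.594, 1.89 and 1.51 CPM in controls, and the highest SPOCK1 library lay just below the lowest control. The change was -1.57 ± 0.40 (adjusted p = 0.0757). Next came AC008764.6 at -1.16 ± 0.31 (adjusted p = 0.0872) and LINC00973 at 1.70 ± 0.48 (adjusted p = 0.112).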
